A study of Mus musculus with 27 samples.

Results

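The interleukin 12 (IL-12), IL-6, TNF and IL-10 cytokine genes Il12a, Il12b, Il23a, Il27, Ebi3, Il6, Osm, Tnf, Il10 and Il15 were followed across monocytes, macrophages and conventional type 1 dendritic cells (cDC1s) from the inflamed colon of WT and Mbd2-/- mice. Every probe carrying one of these 10 symbols was taken, which gave 17 of the 45281 probes on the Illumina MouseWG-6 BeadChip, a single-colour array on which a transcript is read as the mean brightness of the beads that carry its probe. Of the 27 arrays of the series, 25 were of colon cells. Monocytes and macrophages had 5 arrays of each genotype, and cDC1s had 2 from WT and 3 from Mbd2-/- mice. All mice, controls included, were given 2% dextran sodium sulfate (DSS) in the drinking water, which injures the colon epithelium, and the study's methods give 6 days of it in adult mice on a C57BL/6 background. Mbd2, which encodes methyl-CpG-binding domain protein 2, was missing in every cell of the Mbd2-/- animals, so a difference in a sorted cell could arise in that cell or in its surroundings. By the sorting gates, monocytes were CD11b+Ly6C+, macrophages CD11b+Ly6C-MHC-II+F4/80+ and cDC1s CD11b-CD11c+CD103+. The labels give no untreated colon cells, so no level before DSS was measured. A replicate was 1 array of cells from 1 to 5 mice in the deposited record, and arrays are named here by the number in their label.

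Mean intensity per array was between 172 and 353 and 16024 to 18608 probes were above background (detection p under 0.05). Among cDC1s, every Mbd2-/- array was dimmer than every WT array. Their mean intensity reached at most 228, whereas no WT cDC1 array fell below 265. Probes above background numbered no more than 16572 in Mbd2-/- cDC1s and no fewer than 17443 in WT cDC1s. All cDC1 genotype differences below therefore depend on how this gap was normalized, and its part in them was not tested. The single Mbd2 probe was above background on 0 of 25 arrays so the labels could not be checked by it. The labelled cell types were borne out by their markers. The summed intensity of 10 macrophage markers, C1qa and Adgre1 among them, was 41261 to 47949 in macrophages, 16910 to 21434 in monocytes and 2533 to 5509 in cDC1s, and that of 11 cDC1 markers was 13529 to 15325 in cDC1s and at most 2318 elsewhere. Within these, Clec9a and Xcr1 were above background on every cDC1 array, whereas Naaa was above background on 1 of the 5 and Flt3 on 2 of the 5. Ly6c1 and Vcan were brightest in monocytes, but the Ccr2 probe was above background on only 1 of 10 monocyte arrays. Epithelial markers gave summed intensities of 4425 to 16914 over the 25 arrays. Among cDC1s they summed to 16913 on WT array 23, 4425 on WT array 26 and 5271 to 10894 on Mbd2-/- arrays. On the cDC1 arrays, T cell markers summed to 3434 on WT array 23, 873 on WT array 26 and 1047 to 3105 on Mbd2-/- arrays. The part of epithelial and T cell transcripts in the cDC1 differences was not tested.

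These cytokines are a main route by which myeloid cells instruct lymphocytes and epithelium during colitis. The IL-12 family is built from shared chains. p35 (Il12a) and p40 (Il12b) form IL-12, p19 (Il23a) and p40 form IL-23, and p28 (Il27) and EBI3 (Ebi3) form IL-27, while EBI3 with p35 forms IL-35. IL-6 and oncostatin M (Osm) signal through receptors that contain gp130, TNF acts through its receptors to activate NF-kB, IL-10 restrains macrophage activation through STAT3, and IL-15 is presented on IL-15 receptor alpha to NK cells and T cells. IL-10 is the cytokine for which resident colon macrophages are best known. A transcript level says nothing of whether the partner chain or the secreted protein was made.

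MBD2 binds DNA at methylated CG dinucleotides, so the letters upstream of the cytokine genes are shown with each CG in capitals. The 250 bases before the start of transcription were read from RefSeq for assembly GRCm38.p6, which held entries for 5 of the 10 genes, namely Il12a, Il12b, Ebi3, Il6 and Tnf. Averaged over genotypes, Il12a was higher in monocytes than in either other cell type, and Tnf and Il6 were lowest in cDC1s. Ebi3 was the one tested gene that was higher in cDC1s than in monocytes, though the difference was -0.02 in WT arrays alone. The windows of these 4 genes are printed here. Each is written 5′ to 3′ on the strand of its gene.
Il12a, chr3:68690394-68690643, plus strand: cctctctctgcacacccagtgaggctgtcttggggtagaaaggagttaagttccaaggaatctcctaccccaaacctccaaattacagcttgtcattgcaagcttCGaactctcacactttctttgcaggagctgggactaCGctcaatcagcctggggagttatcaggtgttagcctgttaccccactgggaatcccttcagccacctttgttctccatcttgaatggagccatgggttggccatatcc
Tnf, chr17:35202008-35202257, minus strand: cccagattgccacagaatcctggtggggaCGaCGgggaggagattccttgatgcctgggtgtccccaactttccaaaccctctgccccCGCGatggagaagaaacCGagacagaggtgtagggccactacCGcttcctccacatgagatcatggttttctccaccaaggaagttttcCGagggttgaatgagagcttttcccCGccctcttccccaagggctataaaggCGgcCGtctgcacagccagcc
Il6, chr5:30012864-30013113, plus strand: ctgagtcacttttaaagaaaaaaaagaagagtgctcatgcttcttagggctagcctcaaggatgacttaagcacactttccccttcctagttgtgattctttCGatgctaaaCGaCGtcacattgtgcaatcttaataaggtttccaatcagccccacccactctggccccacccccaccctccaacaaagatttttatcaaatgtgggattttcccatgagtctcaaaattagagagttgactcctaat
Ebi3, chr17:55952373-55952622, plus strand: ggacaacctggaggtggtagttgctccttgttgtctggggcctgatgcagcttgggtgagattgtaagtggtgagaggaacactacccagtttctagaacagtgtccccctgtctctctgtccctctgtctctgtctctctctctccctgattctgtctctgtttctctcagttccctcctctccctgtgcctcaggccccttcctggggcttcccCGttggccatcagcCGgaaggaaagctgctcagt
The Ebi3 window held 2 CG dinucleotides, that of Il6 held 3 and that of Tnf held 10. Il12a has a second annotated start at which the window, chr3:68691174-68691423, held 15, against 2 at the first start printed above, and the array does not tell the starts apart. The Il12b window held 3. The median over the 32851 windows of this length in the table was 6, and 92.1% of them held at least 1 CG. DNA methylation and MBD2 binding were not measured in these samples, so the letters describe the genes and not the arrays.

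The first question was where in the inflamed colon each cytokine was transcribed. Monocytes and macrophages carried the transcripts of oncostatin M, TNF and IL-10 at far higher levels than cDC1s and that of IL-6 at moderately higher levels. Averaged over genotypes, monocytes stood highest for the IL-12 and IL-23 chains Il12a and Il23a, and macrophages for Il10 and Ebi3. For Il23a and Ebi3 not every step passed in each genotype alone, as given below. Values below are normalized log2 intensities of the brightest probe of a gene, and a probe passed the test at an adjusted p under 0.05. Levels are compared between cells for one probe and never between probes. In sorted bulk RNA, fewer producing cells and less RNA per cell cannot be told apart. Monocyte and macrophage arrays also occupied different positions in the table, so cell type and array position cannot be told apart in that comparison.

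**Figure D1:**
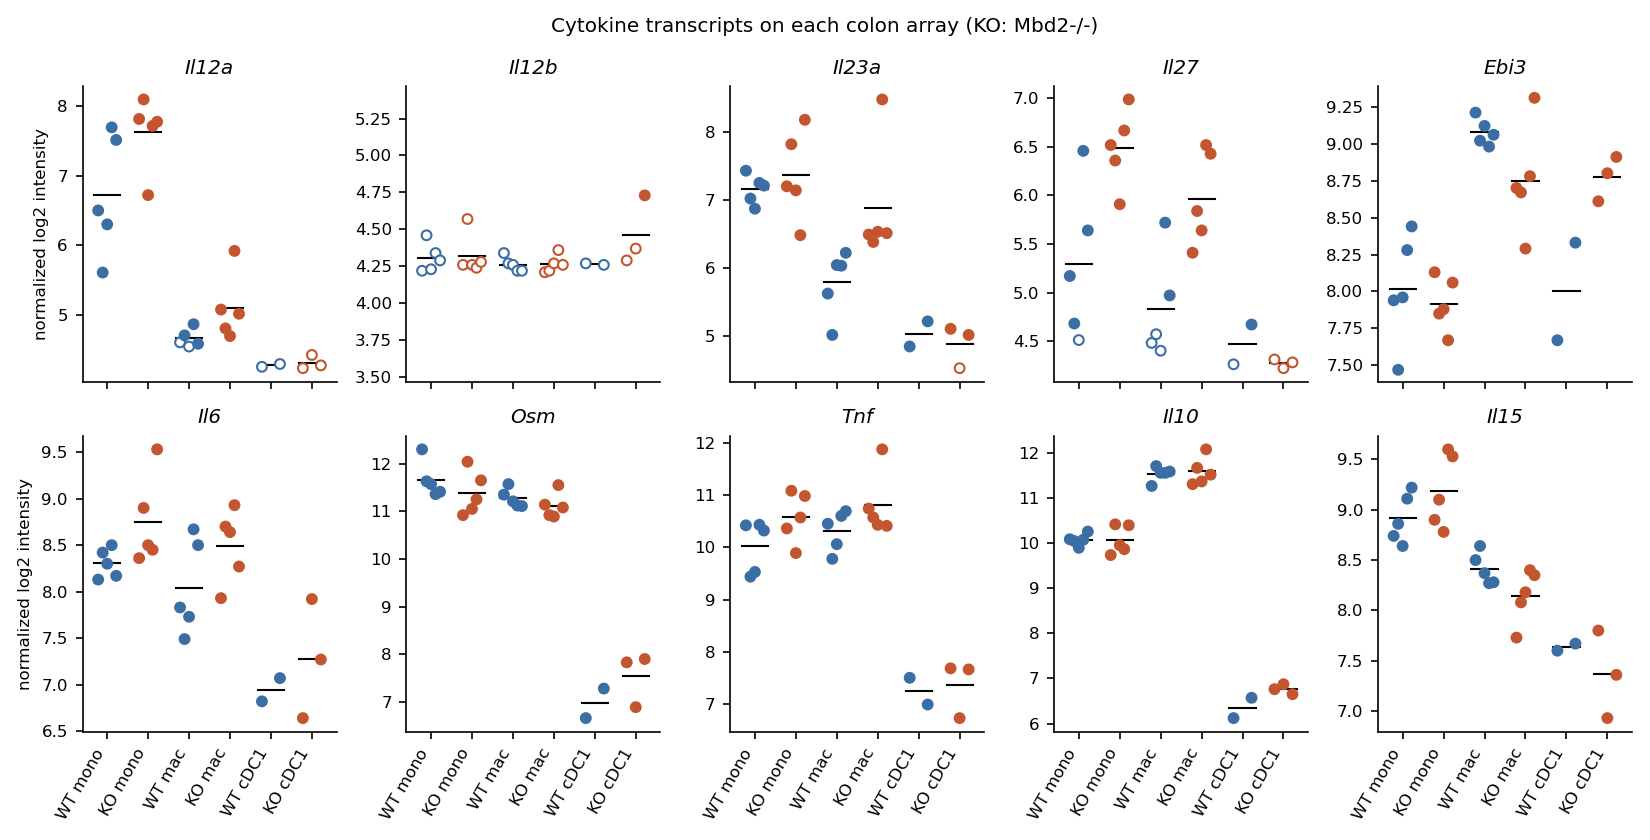
Normalized log2 intensity of the brightest probe of each of the 10 cytokine genes (y axis, own scale per panel) in the 6 groups of colon arrays (mono, monocytes; mac, macrophages; KO, Mbd2-/-). Each point is an array, filled where the probe was above background, and each bar is a group mean. Il10 lies between 9.73 and 12.07 in monocytes and macrophages and between 6.12 and 6.87 in cDC1s, and Il12b is above background on 1 array.

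Il10 gave the clearest ladder of the 10. It was 9.89 to 10.25 on WT monocyte arrays and 9.73 to 10.41 on Mbd2-/- ones. WT macrophages ranged from 11.26 to 11.70 and Mbd2-/- macrophages from 11.30 to 12.07. On cDC1s it was 6.12 and 6.57 in WT and 6.65, 6.76 and 6.87 in Mbd2-/- mice, so no array of one cell type overlapped with another. Averaged over genotypes, macrophages exceeded monocytes by 1.49 (SE 0.11, 2.80-fold, adjusted p = 1.21e-10). cDC1s were 32.1-fold below macrophages (log2 difference -5.00, SE 0.13, adjusted p = 7.02e-19) and 11.4-fold below monocytes (log2 difference -3.52).

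Tnf and Osm shared the low level in cDC1s but not the step between the other cells. Tnf was 9.44 to 11.08 in monocytes, 9.78 to 11.87 in macrophages and 6.74 to 7.69 in cDC1s. Its difference between cDC1s and macrophages was -3.25 (SE 0.26, 9.50-fold, adjusted p = 2.37e-10), and its second probe gave -3.47. Between macrophages and monocytes the Tnf difference was 0.26 with a 95% interval from -0.17 to 0.69. Osm was 10.92 to 12.30 in monocytes, 10.89 to 11.57 in macrophages and 6.66 to 7.90 in cDC1s, a difference of -4.26 between cDC1s and monocytes (SE 0.20, 19.2-fold, adjusted p = 1.22e-14). Its brightest probe did not pass between macrophages and monocytes (-0.32, adjusted p = 0.118), whereas its other probe did (-0.68, adjusted p = 0.00133). Il6 was 1.41 lower in cDC1s than in monocytes (log2 difference -1.41, SE 0.23, 2.67-fold, adjusted p = 1.21e-05) and differed by -0.26 between macrophages and monocytes, with an interval from -0.64 to 0.12.

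Within the IL-12 family the chains had different patterns. Il12a was 5.61 to 8.09 in monocytes and 4.55 to 5.92 in macrophages, 4.88-fold lower in the latter (log2 difference -2.29, SE 0.22, adjusted p = 1.34e-08). On all 5 cDC1 arrays it was not well above background, and there it was at least 5.90-fold lower than in monocytes. That bound was set by the dimmest probes above background on each array and carries no p-value. The limma difference from monocytes was -2.87 (adjusted p = 3.38e-09). Il12a was tested because monocytes were above background, so it could hardly come out higher in cDC1s. Against macrophages the same bound was 1.21-fold, and the limma difference of -0.59 did not pass (adjusted p = 0.0708). Il23a stepped down from monocytes (6.48 to 8.18) to macrophages (5.01 to 8.48) to cDC1s (4.52 to 5.21). The step from monocytes to macrophages was -0.93 (SE 0.24, adjusted p = 0.00358) and that from macrophages to cDC1s was -1.38 (SE 0.30, adjusted p = 0.000428). Neither Il23a step passed in both genotypes taken alone. The first was -1.37 in WT arrays and -0.48 in Mbd2-/- arrays (adjusted p = 0.324), and the second was -0.76 in WT (adjusted p = 0.196) and -2.01 in Mbd2-/- arrays. Il27 was above background on 1 of 5 cDC1 arrays and was lower there than in monocytes (log2 difference -1.53, SE 0.27, adjusted p = 5.39e-05), with -0.83 in WT arrays alone (adjusted p = 0.126) and -2.22 in Mbd2-/- arrays alone. Its difference between macrophages and monocytes, -0.50, did not pass (adjusted p = 0.0822). The sizes for these dim probes depended on the background setting. Without background correction Il12a differed by -1.14 and Il23a by -0.52 between macrophages and monocytes, and between cDC1s and monocytes Il12a differed by -1.36, Il23a by -1.15 and Il27 by -0.62, all still past the threshold.

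Il12b, the p40 chain common to IL-12 and IL-23, could not be followed. Its probe was above background on 1 of 25 arrays, the Mbd2-/- cDC1 array 30, where it reached 4.73. On the other arrays it lay between 4.21 and 4.57. No fold change was drawn from it, and the array's reading of IL-12 and IL-23 therefore rests on the p35 and p19 chains alone.

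Ebi3, the partner of p28, was highest in macrophages. It was 7.47 to 8.44 in monocytes, 8.29 to 9.31 in macrophages and 7.67 to 8.91 in cDC1s. It was higher in macrophages than in monocytes by 0.95 (SE 0.12, adjusted p = 1.69e-06), and it was the only one of the 9 tested genes that was higher in cDC1s than in monocytes (0.42, SE 0.15, adjusted p = 0.0246). That last difference was -0.02 in WT arrays alone and 0.85 in Mbd2-/- arrays alone, and -0.08 when arrays were scaled to a common median, where the median of all tested probes moved to -0.28. It did not pass without WT cDC1 array 26 (0.25) or without Mbd2-/- cDC1 array 30 (0.38). Ebi3 was lower in cDC1s than in macrophages (-0.53, SE 0.15, adjusted p = 0.00564), a difference that was -1.08 in WT arrays alone, 0.02 in Mbd2-/- arrays alone and -1.04 under median scaling. It did not pass without WT cDC1 array 23 (-0.37). Il15 was highest in monocytes (8.64 to 9.60), lower in macrophages (7.73 to 8.64) and lowest in cDC1s (6.93 to 7.80). Its steps were -0.77 from monocytes to macrophages (adjusted p = 3.00e-05; -0.50 in WT and -1.04 in Mbd2-/- arrays alone) and -0.78 from macrophages to cDC1s (adjusted p = 0.000172). Of the 5 Il15 probes, 2 were above background on no array, and a dimmer one that was tested gave a smaller difference in each comparison (-0.22 and -0.13).

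Counted over the 14 tested probes of 9 genes, 2 were higher and 6 lower in macrophages than in monocytes, where 20.6% of all 16347 tested probes were higher and 18.0% lower. In cDC1s against monocytes 13 of the 14 were lower and 1 higher, beside 25.8% lower and 27.6% higher among all tested probes. In cDC1s against macrophages 12 of the 14 were lower, beside 25.6% of all. Il12a and the dimmer Il23a probe were above background on no cDC1 array. Il27, the dimmer Osm probe and the dimmest tested Il15 probe were above it on 1. These were tested because monocytes or macrophages were above background, so they could hardly come out higher in cDC1s. Il15, Il23a, Osm and Tnf also entered these counts with more than 1 probe. The median change of the 9 brightest probes was -2.31 and -1.16 in these comparisons with cDC1s, against -0.01 over all tested probes in each.

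**Figure D2:**
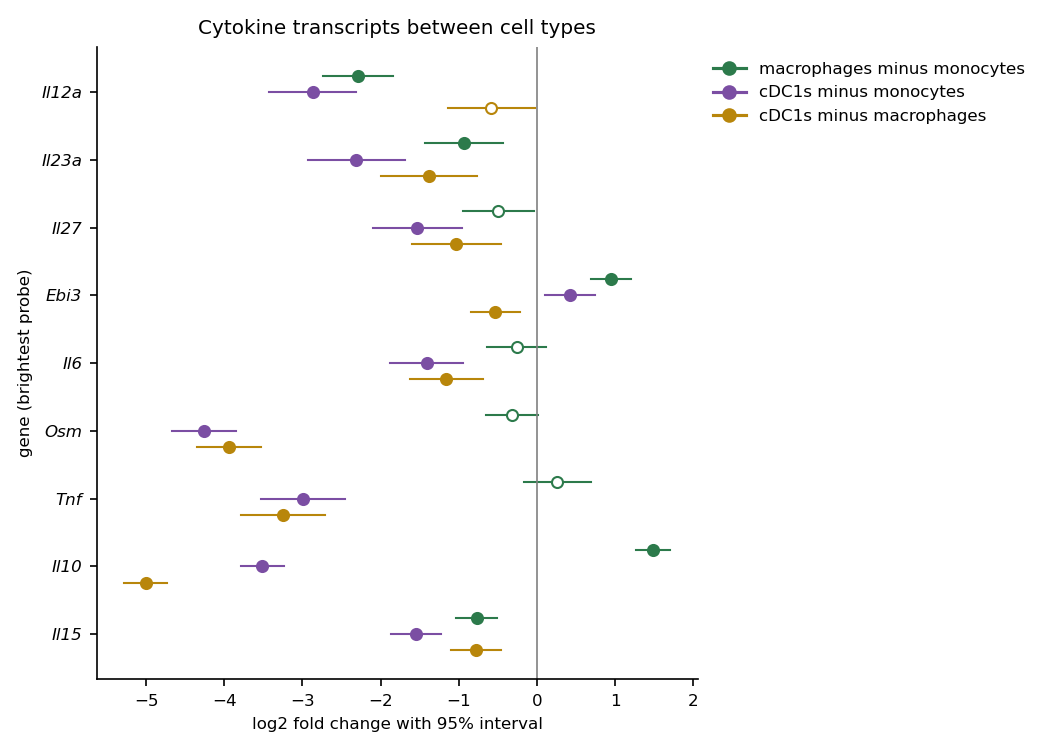
Log2 difference (x axis) of the brightest probe of 9 cytokine genes (y axis) between cell types, averaged over genotypes, with 95% intervals from limma. Filled points passed at an adjusted p under 0.05. Osm, Tnf and Il10 lie between -2.99 and -5.00 in both comparisons with cDC1s, and Il10 and Ebi3 are the genes to the right of 0 and past the threshold in macrophages against monocytes.

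The second question was whether loss of Mbd2 changed these transcripts. Il27, which encodes the p28 chain of IL-27, was the single gene that passed in monocytes and the single gene that passed in macrophages, higher in Mbd2-/- cells by 2.29-fold and 2.20-fold. These sizes depended on the background setting. On the log2 scale the differences were 1.20 and 1.14, against 0.73 and 0.63 with an offset of 50 and 0.52 and 0.44 without background correction, where the call in macrophages was lost (adjusted p = 0.0560). In cDC1s no member passed. Il10, for which macrophages are known, differed by 0.05 between genotypes in macrophages with a 95% interval from -0.26 to 0.36, and by 0.00 in monocytes with an interval from -0.31 to 0.31. The direction for Il10 turned under median scaling, to -0.04 in macrophages and -0.31 in monocytes, where the median of all tested probes moved by -0.07 and -0.26.

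**Figure D3:**
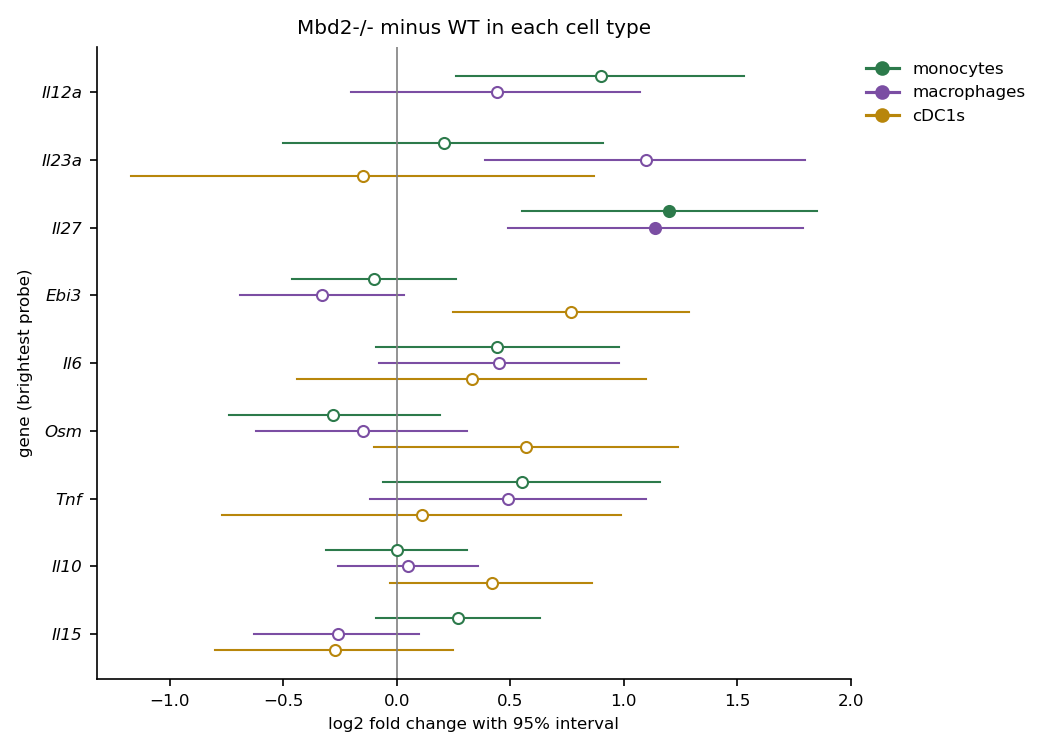
Log2 difference between Mbd2-/- and WT arrays (x axis) of the brightest probe of 9 cytokine genes (y axis) in monocytes, macrophages and cDC1s, with 95% intervals from limma. Filled points, Il27 at 1.20 in monocytes and 1.14 in macrophages, passed at an adjusted p under 0.05. Il12a and Il27 were not tested in cDC1s.

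Il27 on WT monocyte arrays 1 to 5 was 5.17, 4.68, 4.51, 6.46 and 5.64, and on Mbd2-/- arrays 6 to 10 it was 6.36, 5.91, 6.67, 6.99 and 6.52. The Mbd2-/- values were all high, and WT array 4 lay among them. The difference was 1.20 (SE 0.31, adjusted p = 0.049997, just inside the threshold). On WT macrophage arrays 11 to 15 it was 4.48, 4.57, 4.40, 5.72 and 4.97, of which 3 were not above background, and on Mbd2-/- arrays 16 to 20 it was 5.41, 5.84, 5.64, 6.52 and 6.43. Only WT array 14 reached the Mbd2-/- range, and the difference was 1.14 (SE 0.31, adjusted p = 0.0368). The summed intensity of 6 monocyte markers was 3907 to 6573 on WT and 5577 to 7562 on Mbd2-/- macrophage arrays. Of the 5 tested, Ly6c1 (0.91, adjusted p = 0.0484) and Plac8 (0.45, adjusted p = 0.0389) were higher in Mbd2-/- macrophages. Their part in the differences of Il27, Il23a, Il12a and Il15ra in macrophages was not tested. In cDC1s it was above background on 1 of 5 arrays, the WT array 26, and was not tested. The genotype differences in macrophages and monocytes differed by -0.06 (interval -0.97 to 0.86).

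The Il27 difference was not even over the arrays. A BeadChip of this type carries 6 arrays, and the columns of the table were taken in consecutive sets of 6 in the order deposited. Set 1 held WT monocyte arrays 1, 2 and 3 and Mbd2-/- arrays 9 and 10, and set 2 held WT arrays 4 and 5 and Mbd2-/- arrays 6, 7 and 8. Set 3 held WT macrophage arrays 11, 12 and 13 and Mbd2-/- arrays 19 and 20, and set 4 held WT arrays 14 and 15 and Mbd2-/- arrays 16, 17 and 18. In monocytes the Il27 difference was 1.97 in set 1 and 0.26 in set 2, and in macrophages 1.99 in set 3 and 0.29 in set 4. The WT monocyte mean was 4.79 in set 1 and 6.05 in set 2, while the Mbd2-/- means were 6.75 and 6.31. Neither the labels nor the table name the chip or the experiment an array came from, and the part of either in this result was not tested. With the sets as a fixed block the difference was 1.11 in monocytes (adjusted p = 0.0984) and 1.14 in macrophages (adjusted p = 0.0452).

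Leaving out single arrays moved both calls. In monocytes the difference stayed between 1.00 and 1.49 but passed in 2 of the 10 fits, those without Mbd2-/- array 7 and without WT array 4, with adjusted p from 0.00476 to 0.182. In macrophages it stayed between 0.99 and 1.35 and passed in 5 of the 10, and it did not pass without WT array 11, 12 or 13 or Mbd2-/- array 19 or 20, with adjusted p from 0.0219 to 0.110.

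**Figure D4:**
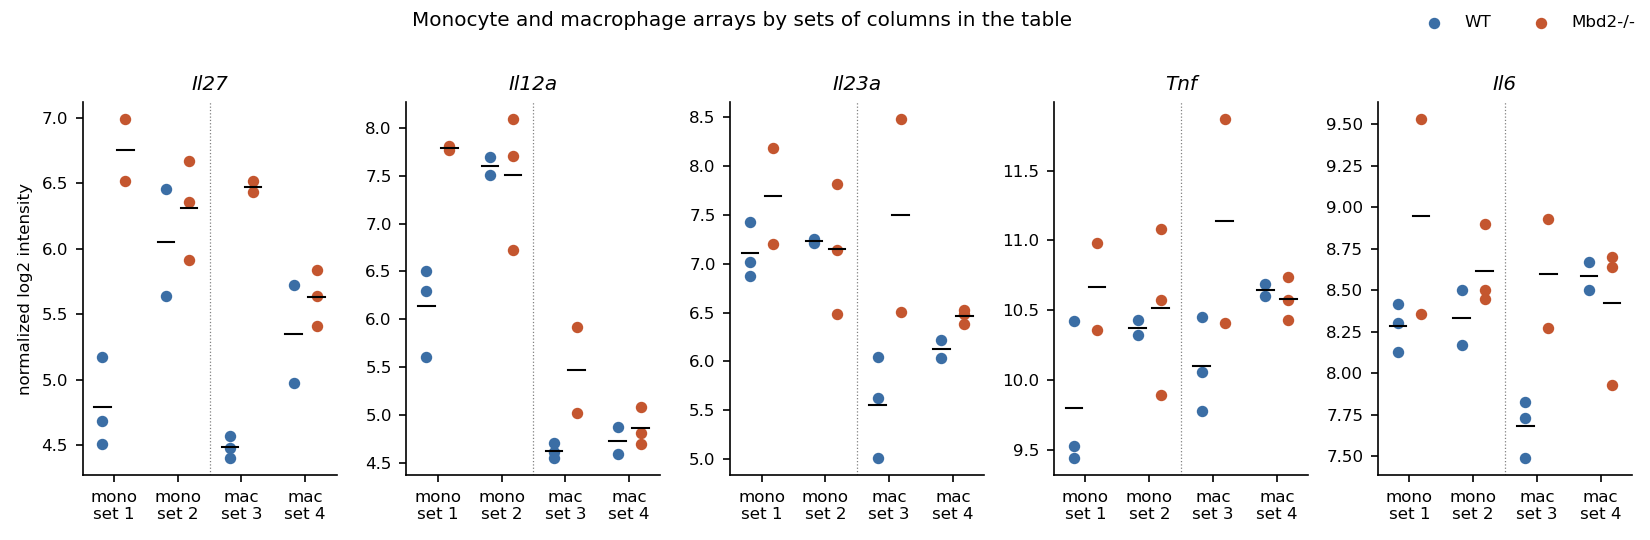
Normalized log2 intensity (y axis, own scale per panel) of Il27, Il12a, Il23a, Tnf and Il6 on monocyte (mono) and macrophage (mac) arrays, split by the set of 6 consecutive columns that holds the array (x axis). Points are arrays and bars are means of 2 or 3 arrays. For Il27 the WT and Mbd2-/- means are 1.97 and 1.99 apart in sets 1 and 3 and 0.26 and 0.29 apart in sets 2 and 4.

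Il12a, the p35 chain, was 6.50, 5.61, 6.30, 7.69 and 7.51 on WT monocyte arrays 1 to 5 and 8.09, 6.72, 7.71, 7.77 and 7.81 on Mbd2-/- arrays 6 to 10. The groups overlapped, and the difference of 0.90 did not pass (SE 0.31, adjusted p = 0.152). Its split over the sets was like that of Il27, 1.65 in set 1 and -0.10 in set 2. In macrophages, where 3 of 5 WT and 5 of 5 Mbd2-/- arrays were above background, the difference was 0.44 (interval -0.20 to 1.07).

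Il23a, the p19 chain, did not overlap between genotypes in macrophages. WT arrays 11 to 15 gave 5.62, 5.01, 6.04, 6.03 and 6.22, and Mbd2-/- arrays 16 to 20 gave 6.49, 6.38, 6.53, 8.48 and 6.51. The difference was 1.10 (SE 0.34, adjusted p = 0.0568), and it was 0.69 without array 19 (adjusted p = 0.149). It was 1.94 in set 3 and 0.34 in set 4, and the second Il23a probe gave 0.37 (adjusted p = 0.372). In monocytes the difference was 0.21 (interval -0.50 to 0.91), and -0.10 under median scaling. The second Il23a probe went the other way in monocytes, -0.47 (interval -0.98 to 0.05).

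Ebi3, the other chain of IL-27, did not move with Il27. In WT macrophages it was 9.21, 9.02, 9.12, 8.98 and 9.06 on arrays 11 to 15, and in Mbd2-/- macrophages 8.70, 8.67, 8.29, 8.78 and 9.31 on arrays 16 to 20, a difference of -0.33 (interval -0.69 to 0.03). In monocytes the difference was -0.10 (interval -0.46 to 0.26). In cDC1s it was 7.67 and 8.33 on WT arrays 23 and 26 and 8.61, 8.80 and 8.91 on Mbd2-/- arrays 27, 28 and 30. These did not overlap, yet the difference of 0.77 did not pass (SE 0.25, adjusted p = 0.0658), and under median scaling it was 0.11 while all tested probes moved by -0.37. The unnormalized intensities ran the other way, 335 and 409 in WT and 265 to 370 in Mbd2-/- cDC1s. The WT and Mbd2-/- cDC1 arrays lay in different sets and did not overlap in mean intensity. Genotype therefore cannot be told apart from position or array brightness there.

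The difference of the Ebi3 genotype effect between cDC1s and macrophages was the one interaction that passed among the members (1.10, SE 0.30, adjusted p = 0.0348). It was 0.52 under median scaling (adjusted p = 0.505), and 0.77 without WT cDC1 array 23 (adjusted p = 0.304), which leaves WT cDC1s with 1 array assumed to vary like the other groups. The adjusted p was also above the threshold without WT macrophage array 11 (0.0511), without Mbd2-/- macrophage array 19 (0.0508) and without Mbd2-/- cDC1 array 28 (0.0697) or 30 (0.0786). Macrophage markers summed to 2533 and 2647 on the WT cDC1 arrays and to 2920 to 5509 on the Mbd2-/- ones, and C1qb was higher there by 0.93 (adjusted p = 0.0150). Adgre1 (0.68, adjusted p = 0.0745), Fcgr1 (0.43, adjusted p = 0.376) and Mrc1 (0.21, adjusted p = 0.694) did not pass. The part of these markers in the Ebi3 difference was not tested. Of the 14 probes tested for such differences, 1 passed between cDC1s and macrophages, beside 6.61% of all probes. None passed between macrophages and monocytes (0.0266% of all probes) or between cDC1s and monocytes (0.883%) by limma, and 3 probes in each had an unadjusted p under 0.05.

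Tnf and Il6 leaned the same way as Il27 without passing. Tnf ranged from 9.44 to 10.43 in WT monocytes and from 9.89 to 11.08 in Mbd2-/- ones, a difference of 0.55 (interval -0.06 to 1.16), and 0.49 in macrophages (interval -0.12 to 1.10). Array 19 held the highest macrophage value, 11.87. Split by set, Tnf differed by 0.87 and 0.14 in monocytes and by 1.04 and -0.06 in macrophages. Il6 differed by 0.44 in monocytes (interval -0.09 to 0.98) and 0.45 in macrophages (interval -0.08 to 0.98), and its macrophage values split into 0.91 and -0.16. Osm differed by -0.28 and -0.15 (intervals -0.74 to 0.19 and -0.62 to 0.31), and Il15 by 0.27 and -0.26 (intervals -0.09 to 0.63 and -0.63 to 0.10). In cDC1s the intervals were wider. Tnf differed by 0.11 (interval -0.77 to 0.99), Il6 by 0.33 (interval -0.44 to 1.10) and Osm by 0.57 (interval -0.10 to 1.24), all of which turned below 0 under median scaling. Il10 in cDC1s differed by 0.42 (interval -0.03 to 0.86) and by -0.21 under median scaling.

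By count, 1 of 14 tested member probes passed in monocytes, beside 1.80% of all 16190 tested probes, and 1 of 14 in macrophages, beside 5.66% of 16834. None of 9 passed in cDC1s by limma, beside 6.64% of 17838, and 1 of the 9 had an unadjusted p under 0.05. The median change of the brightest probes was 0.27 in monocytes, 0.44 in macrophages and 0.33 in cDC1s, against -0.02, -0.065 and 0.03 over all tested probes. A gap between all WT and all Mbd2-/- arrays was found for 0 of 14 member probes in monocytes, 1 of 14 in macrophages and 3 of 9 in cDC1s, where the shares of all tested probes were 4.85%, 5.29% and 31.8%. With 2 WT arrays of cDC1s, such a gap is common.

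The genes that carry the signal of these cytokines were read from lists of receptors, JAK-STAT components, NF-kB components, the IL-10 response, regulators of cytokine transcription and other ligands of the same families, of which 91 genes are reported. Il15ra, which presents IL-15, was higher in Mbd2-/- monocytes and in Mbd2-/- macrophages. Of 74 such genes tested in monocytes 1 was higher and 1 lower, of 73 in macrophages 1 was higher and 1 lower, and of 76 in cDC1s 2 were higher and 3 lower. The shares of all tested probes that passed in either direction were 1.80%, 5.66% and 6.64%, so none of these counts stood clear of the background. Their medians were -0.02, -0.05 and -0.06.

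Il15ra differed by 1.15 in monocytes (SE 0.24, adjusted p = 0.0118) and 0.82 in macrophages (adjusted p = 0.0463). Its values by set were 1.81 and 0.34 in monocytes and 1.08 and 0.54 in macrophages. Leaving out single arrays, it passed in 9 of 10 fits in monocytes and 2 of 10 in macrophages. Il15ra did not pass in monocytes without WT array 3 and passed in macrophages without WT array 15 or Mbd2-/- array 16.

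Stat4, which carries IL-12 signals, was lower in Mbd2-/- monocytes (-0.96, SE 0.20, adjusted p = 0.0120) and passed in all 10 fits that left out an array. It was even over the sets, -1.02 in set 1 and -0.88 in set 2. In macrophages it differed by -0.66 (adjusted p = 0.0544), or -0.76 and -0.64 by set. Stat3, through which IL-6 and IL-10 act, was lower in Mbd2-/- macrophages (-0.74, SE 0.21, adjusted p = 0.0415) with -0.90 and -0.74 by set, and it passed in 3 of 10 fits that left out an array, those without array 11, 16 or 17. In monocytes it differed by -0.11 (adjusted p = 0.880). Stat4 is also expressed by NK cells, whose markers summed to 314 to 468 on WT and 190 to 286 on Mbd2-/- monocyte arrays. Of these markers Klrd1 was lower (-1.54, adjusted p = 0.000954), whereas Prf1 did not pass (-0.37, adjusted p = 0.677). Markers of other dendritic cells, Cd209a (-1.93, adjusted p = 0.000671) and Irf4 (-0.75, adjusted p = 0.0204), were also lower in Mbd2-/- monocytes, while Mgl2 and Sirpa did not pass. The part of any of these markers in the Stat4 difference was not tested.

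In cDC1s 5 of the 76 genes passed, a share near the 6.64% of all tested probes. Il4ra, a receptor chain that IL-10 raises in macrophages, was higher by 1.00 (SE 0.26, adjusted p = 0.0254) and Cebpb, a factor that drives Il6, by 0.43 (adjusted p = 0.0305). The kinase gene Jak2 was lower (-0.95, SE 0.22, adjusted p = 0.0139), as were Rel, an NF-kB subunit (-0.63, adjusted p = 0.0123), and Junb, a subunit of the AP-1 factor (-0.64, adjusted p = 0.0311). None of the 5 passed without Mbd2-/- array 28, and Il4ra was 0.65 without WT array 23. Under median scaling Il4ra fell to 0.30 (adjusted p = 0.616) and Cebpb turned to -0.07. Jak2, Rel and Junb kept their direction under all alternatives, but their calls were also lost in some, with adjusted p up to 0.349, 0.349 and 0.353. Cebpb was 13.08 to 13.39 in macrophages and 9.90 to 10.50 in cDC1s. The summed macrophage markers were higher on the Mbd2-/- cDC1 arrays, though not every marker passed, as given above for Ebi3. Their part in the Cebpb difference was not tested. None of the tested TNF signalling genes passed in monocytes (21 tested) or macrophages (20 tested) by limma, where 1 and 4 had an unadjusted p under 0.05.

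**Figure D5:**
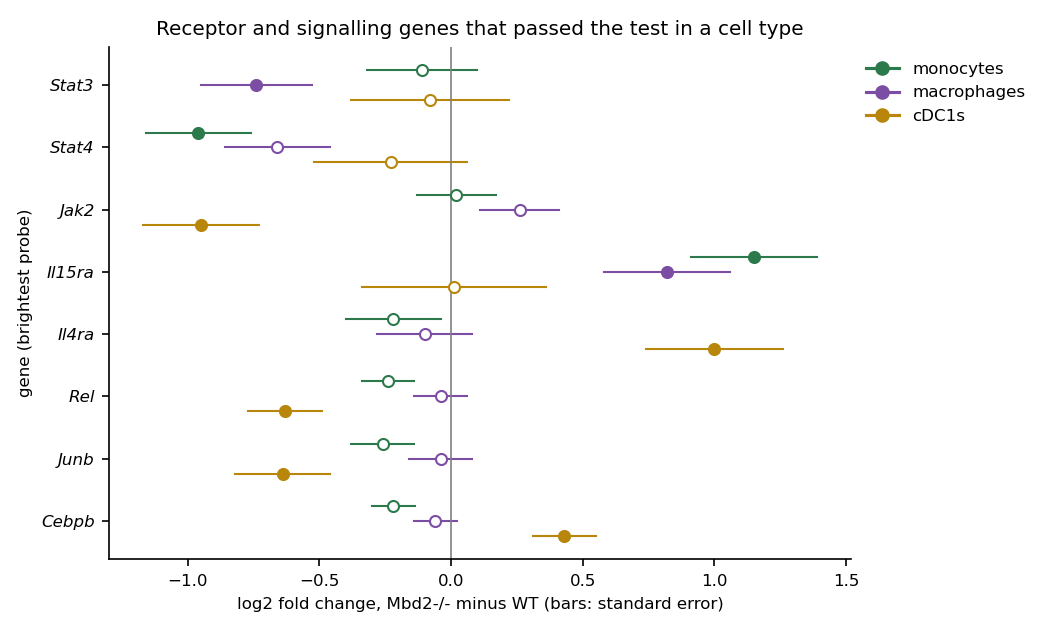
Log2 difference between Mbd2-/- and WT arrays (x axis, bars are standard errors) for 8 receptor and signalling genes (y axis) that passed in at least 1 cell type. Filled points passed at an adjusted p under 0.05. Il15ra is filled in monocytes and macrophages, at 1.15 and 0.82, and lies at 0.01 in cDC1s.

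The transcripts most like each cytokine were sought by Pearson correlation over the 25 arrays among 16127 probes, as a description, since the arrays share cell types and are not independent. Il27 was most like the interferon-inducible GTPase genes Igtp (r = 0.938) and Gbp5 (r = 0.922) and the arginine transporter Slc7a2 (r = 0.934). Tnf was most like Il1a (r = 0.973), Ccrl2 (r = 0.968) and Tcirg1 (r = 0.949), and Osm like Ms4a6d (r = 0.982) and the bacterial product receptors Cd14 (r = 0.979) and Tlr2 (r = 0.978). Il10 was most like the lysosomal phosphatase Acp2 (r = 0.992), Aoah (r = 0.988), which inactivates endotoxin, and Rgl1 (r = 0.988). Il6 came with Prdx5 and the complement factor Cfb (r = 0.863 each) and Xdh (r = 0.857), and Il23a with Rap2c (r = 0.901), Il13ra1 (r = 0.897) and Tnfrsf1b (r = 0.896), a receptor for TNF. Among those most like Il12a were AA467197 (r = 0.943) and Rffl (r = 0.937). Il15 came with Slc25a37 (r = 0.923), D930042A21Rik (r = 0.922) and Rrbp1 (r = 0.921), and Ebi3 with Mgmt (r = 0.874), Tmem177 (r = 0.850) and Sdc3 (r = 0.841).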

How the data were processed

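The authors deposited intensities, the mean bead brightness per probe exported from GenomeStudio without normalization or background subtraction, and a detection p-value for each probe, computed against the negative control probes. The standard error over beads and the number of beads (20 to 69 per cytokine probe and array) were also deposited. The submitters' processing notes name lumi and limma. The paper's methods and the labels differ in the number of mice pooled, in the kit for RNA and in the lowest RNA integrity accepted. The table holds 3 signal columns that belong to no sample here, which were not used. The 10 cytokine genes and all gene lists were chosen with earlier results of these data known.

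Background was corrected by normexp (offset 16) with negative controls inferred from the detection p, and the 25 colon arrays were taken to log2 and quantile normalized. In R 4.3.3, limma 3.58.1 (lmFit, contrasts.fit and eBayes) was fitted to 6 groups of cell type and genotype. Tests were two-sided, with Benjamini-Hochberg adjustment over all probes tested in a comparison, and replicates may share mice or days, so p-values measure the spread between arrays. A probe was tested if the number of compared arrays with a detection p under 0.05 reached the size of the smaller group. Different probes were not averaged, and each gene is represented by its brightest probe, judged by the mean of the 25 arrays. Named beyond the 10 genes were up to 3 genes per list, direction and genotype comparison with the largest change among those that passed, and the 3 genes with the highest correlation to each cytokine detected on at least 13 arrays. Some genes that these rules take in are not reported here, and the counts over the lists leave out 1 of them. Of the 17 probes, 13 had an accession in the RefSeq table used for chromosomes. Arrays were checked for duplicated columns, of which there were 0. The fit was tested on simulated data. The number of arrays limits the precision.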

Additional observations from a re-analysis of the deposited data

Results flagged for a closer look

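Within groups of 5 arrays, 4 of 36 combinations of gene and group had an array far from the other arrays by Dixon's 95% criterion, which chance gives in about 1 of 20 groups. Il23a in Mbd2-/- macrophages was 8.48 on array 19 against 6.53 on the nearest array, and Tnf was 11.87 on the same array against 10.74. Osm in WT monocytes was 12.3 on array 1, and Il12a in Mbd2-/- monocytes was 6.72 on array 7, below the other arrays.

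The genotype effect on Ebi3 differed between cDC1s and macrophages by 1.10 on the log2 scale (limma interaction, adjusted p = 0.0348). Under median scaling the same limma interaction was 0.52 (adjusted p = 0.505), and without WT cDC1 array 23 it was 0.77. Among cDC1s, genotype cannot be told apart from array position or brightness.

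The 2 arrays of splenic CD4 T cells, taken 6 weeks after a transfer, enter no comparison above. With 1 array per genotype no test is possible. Ebi3, Osm, Tnf, Il10 and Il15 were above background on both. Unnormalized intensities on the WT and Mbd2-/- array were 214 and 132 for Ebi3, 479 and 240 for Osm, 352 and 262 for Tnf, 108 and 130 for Il10, and 116 and 103 for Il15, where the negative controls averaged 87.3 and 80.4. Il12a, Il12b, Il23a, Il27 and Il6 were above background on neither.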

How the results depend on the processing

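Differences between cell types kept their direction and call in 812 of 836 comparisons with an alternative. Many of these left out 1 array and so shared most of their data. An unadjusted p, an adjusted p under 0.01 and a minimum log2 change reused the main fit, so the direction could not turn there. Of 24 alternatives each, Il27 passed in 10 in monocytes and 13 in macrophages, and its direction held in all. Its main fit already met the unadjusted p and the minimum log2 change, so the passes under these were fixed in advance. The count of member probes that passed in monocytes (1) was 0 under median scaling, no filter, an adjusted p under 0.01, sets of 6 columns as a random or a fixed block and a fit of monocytes alone, 2 with array weights, 4 at an unadjusted p, and 0 to 2 without single arrays. In macrophages (1) it was 0 with no background correction, median scaling, no filter, an adjusted p under 0.01, array weights and macrophages alone, 2 under cyclic loess, the stricter filter and an unadjusted p, and 0 to 2 without single arrays. In cDC1s (0) it was 1 at an unadjusted p and 0 to 1 without single arrays. Between macrophages and monocytes a minimum log2 change of 1 left 2 of 8 and leaving out arrays gave 8 to 9. Between cDC1s and macrophages that minimum left 7 of 12, with 11 to 12 without single arrays, and between cDC1s and monocytes 12 to 14 of 14 passed without single arrays. For the difference of the genotype effect between macrophages and monocytes an unadjusted p gave 3, between cDC1s and monocytes 3 (0 to 1 without single arrays), and between cDC1s and macrophages (1) 3, or 0 under median scaling, cyclic loess, no filter, an adjusted p under 0.01 and array weights, and 0 to 1 without single arrays.

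Signs turned for values near 0. Under median scaling the genotype difference was -0.10 for Il23a, -0.31 for Il10 and -0.05 for Il15 in monocytes, -0.04 for Il10 in macrophages, and -0.34 for Il6, -0.09 for Osm, -0.51 for Tnf, -0.21 for Il10 and -0.07 for Cebpb in cDC1s, and Ebi3 in cDC1s against monocytes was -0.08. Cyclic loess turned Il23a in cDC1s to 0.21, the fixed block turned Il10 in monocytes to -0.03, WT arrays alone turned Ebi3 in cDC1s against monocytes to -0.02, and Mbd2-/- arrays alone turned Ebi3 in cDC1s against macrophages to 0.02. Leaving out single arrays, Il10 ranged from -0.08 to 0.09 and Ebi3 from -0.24 to 0.00 in monocytes, Il10 from -0.07 to 0.12 in macrophages, and Il23a from -0.33 to 0.04 and Tnf from -0.15 to 0.42 in cDC1s. The cause was not tested. The negative control probes listed in the table, used in place of inferred ones after the data were seen, changed no call. Macrophage arrays numbered 10 above a monocyte array deviated with it at correlations of -0.03 to 0.47. Correlations between other arrays were not computed, so these values cannot decide whether such arrays shared mice. The monocyte and macrophage results may therefore not be independent. The numbers were not taken as pairs in the main fit, and pairing them as a random block changed no call between these cell types. No paired analysis was possible because the groups share no replicate number in the labels, and the block of arrays numbered 10 apart is not a pairing that the labels give.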
